A study of Mus musculus with 9 samples.

Results

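The genes described here are 47 of 18193 measured genes whose mRNA was abundant on the polysomes of mouse oocytes at the germinal vesicle (GV) stage and nearly gone from them at metaphase II (MII). A gene was taken where its brightest probe set that is annotated to a single symbol had an intensity of 800 or more on all 3 GV arrays and below 150 on all 3 MII arrays. Genes whose symbols mark ribosomal proteins, respiratory chain subunits, proteasome subunits or translation factors were left out, which removed 10 further genes. The GV and MII intensities thus chose the members and are given below only as a description. The intensities at metaphase I (MI) had no limit to meet. They did count in the mean over the 9 arrays that picked the brightest probe set, which favours probe sets bright at MI.

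The series measured polysome-bound mRNA, the mRNA loaded with ribosomes, of mouse oocytes on Affymetrix whole-genome arrays, with 3 arrays at each of 3 stages. GV oocytes, at rest in meiotic prophase, were collected 0 h after human chorionic gonadotropin (hCG), MI oocytes 4 h after it and MII eggs 14 h after it. All mice had received PMSG, a gonadotropin that makes follicles grow, 48 h before hCG. The labels name neither strain nor age of the mice, nor how many oocytes or animals an array stands for, and the MI samples also carry an unexplained description, pGVB. The arrays of a stage are called biological replicates, with nothing on separate animals, so the spread behind each p-value may be technical in part.

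A fully grown oocyte has nearly stopped transcribing its genes, and from GV to MII it works with mRNA that it stored while growing. During maturation many stored mRNAs lose their poly(A) tail, leave the polysomes and are degraded, while others gain a tail and start to be translated, under the control of proteins that bind their 3' ends. In mouse oocytes mRNAs for household functions are known for the first course and mRNAs for the meiotic cell cycle for the second. A signal on polysomes falls when an mRNA is destroyed and also when an intact mRNA leaves the ribosomes, and these cannot be told apart here. Nor can fewer cells and less RNA per cell be told apart in pooled samples.

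All 12 measured oocyte markers had a mean intensity above 100, and their summed intensity lay between 69846 and 76401 on the GV arrays, between 61551 and 65757 on the MI arrays and between 31472 and 38268 on the MII arrays. Of 25 measured markers of granulosa and cumulus cells, the follicle cells around the oocyte, 3 had a mean above 100 (Cyp11a1, Nr5a2 and Star), and their summed intensity lay between 1272 and 1656 at GV, 1212 and 1969 at MI and 870 and 1275 at MII. The highest of these sums was on MI 3, which was also the highest array for 8 of the 25 markers and had a median marker level of 5.95 on the log2 scale, against 4.79 to 5.38 on the other arrays. Among the 8, Inhba reached 302 on MI 3 and at most 48.9 elsewhere, Hsd17b1 202 and 104, Ptgs2 168 and 76.6, Fst 155 and 59.0, and Btc 105 and 25.5. Has2 (54.0), Ereg (47.1) and the FSH receptor Fshr (13.9) also peaked there. The 3 markers with a mean above 100 did not: Cyp11a1 had 338 on MI 3 and up to 782 elsewhere, Star 88.9 and up to 403, and Nr5a2 13.8, its lowest value. Of 15 measured blood, immune and endothelial markers 3 had a mean above 100, and their summed intensity lay between 483 and 1678 at GV, 1047 and 1358 at MI and 681 and 1054 at MII. Of these 3, the complement gene C1qb had 782, 50.9 and 392 at GV, 598, 519.7 and 446 at MI and 11.6, 8.75 and 46.1 at MII, and the endothelial receptor Tek 484, 186 and 437 at GV, 587, 271 and 225 at MI and 10.4, 5.52 and 47.3 at MII. Both were thus low at MII as the members are, while Pecam1, an endothelial adhesion molecule, had 298, 91.6 and 182 at GV, 44.0, 79.9 and 442 at MI and 569, 627 and 785 at MII. The part of such cells in the members' values was not tested. MI 3 also had the lowest 95th percentile of the MI arrays, 1163 against 1458 on MI 1 and 1446 on MI 2, while the MII arrays lay between 1126 and 1221.

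The typical member was still abundant at MI. The median intensity of the 47 genes was 1565, 1389 and 1499 on the GV arrays, 1447, 1341 and 792 on the MI arrays and 69.3, 46.5 and 36.6 on the MII arrays. On MI 1 and MI 2 the median thus lay close to the GV values, and on MI 3 it was lower than on any GV array. Of the 141 MI values, 100 were at 800 or more, the limit that GV arrays had to reach, and 2 were below 150, both on MI 3. All 3 MI arrays reached 800 for 17 members, 2 arrays did for 20, 1 did for 9 and none did for Nucb1. At MII 26 of 141 values were below 16, the constant added before taking logarithms, so the fall of the lowest genes is understated on the log2 scale.

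**Figure D1:**
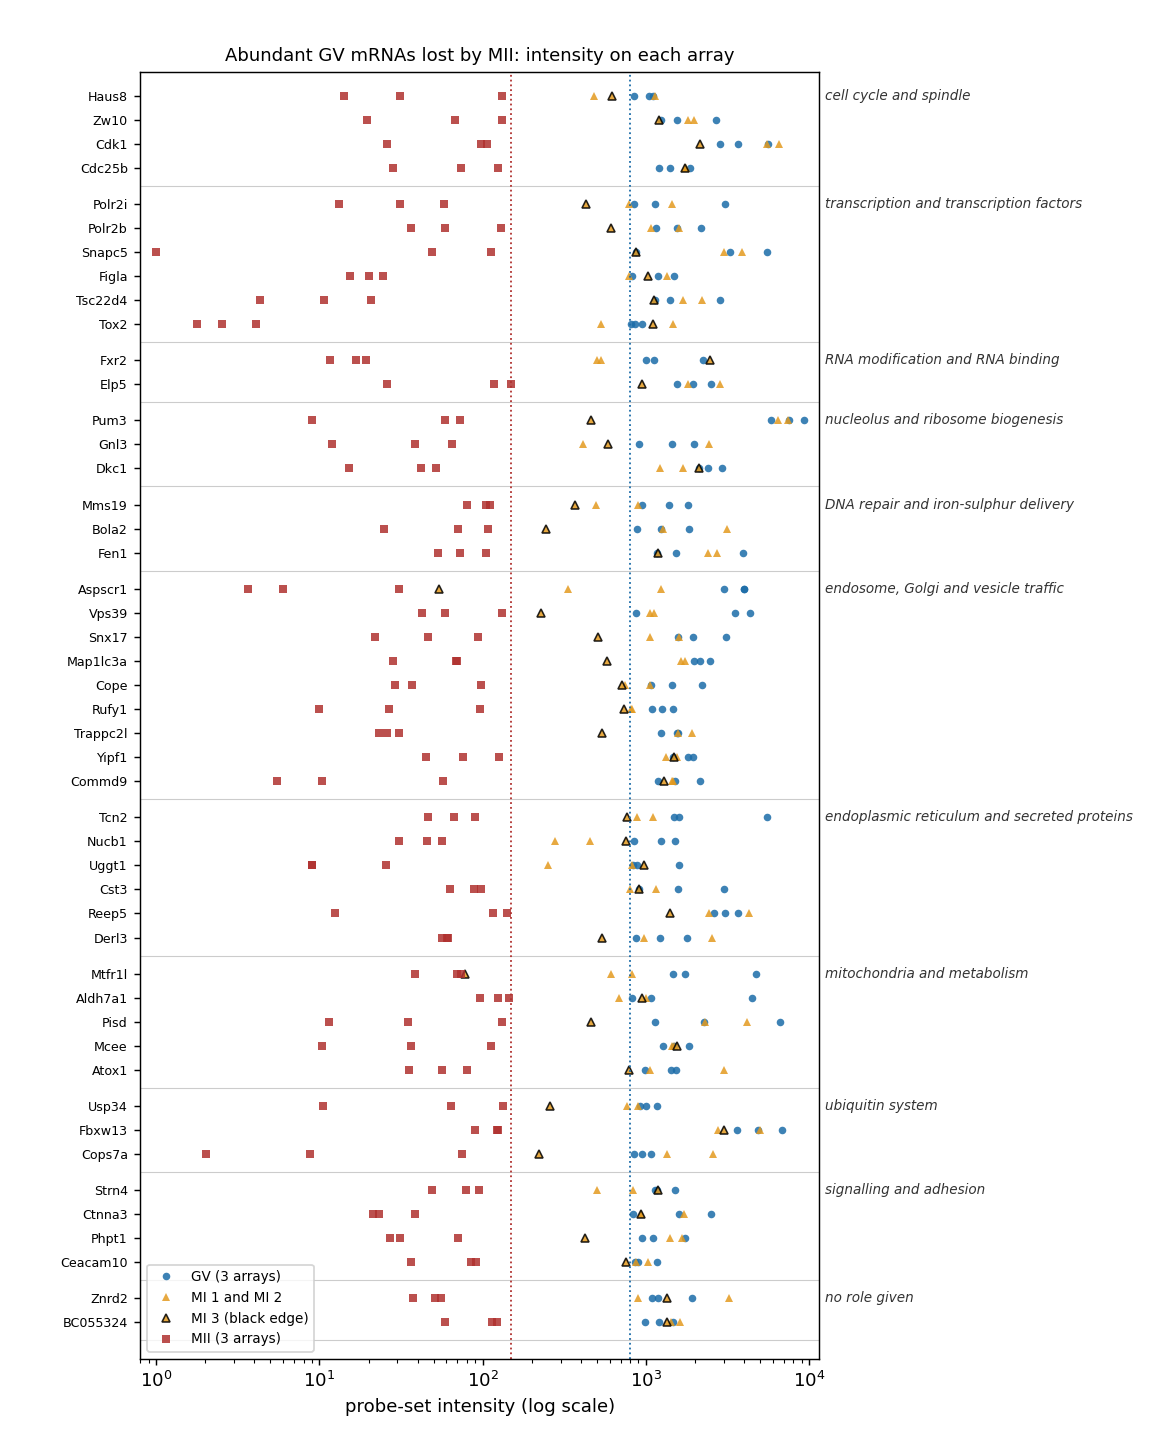
Probe-set intensity (log axis) of the 47 genes on each of the 9 arrays, grouped by what the gene products do, with GV as circles, MI as triangles (MI 3 with a black edge) and MII as squares; dotted lines mark the 2 limits of the rule, 150 and 800. Most MI values lie among or just left of the GV values, and MI 3 is often the lowest of the MI arrays.

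Between MI and GV no member passed limma's moderated test at a Benjamini-Hochberg adjusted p under 0.05, and no gene of all 18193 did in either direction, a background of 0%. At an unadjusted p under 0.05 in limma's test, 6 members were lower at MI and 0 higher, while 617 of all genes (3.39%) were lower and 680 (3.74%) higher. Of the 1678 genes at 800 or more on all 3 GV arrays, 127 were lower and 77 higher. The median change of the members, MI minus GV on the log2(intensity + 16) scale, was -0.49, with a range from -3.54 (Aspscr1) to 0.27 (BC055324). It was -0.22 for the 10 genes left out by symbol, -0.06 for all 1678 genes at 800 or more on the 3 GV arrays and 0.01 for all genes. Of the members 40 lay below 0 and 7 above, while 49.1% of all genes and 56.6% of the 1678 bright GV genes lay below 0. These are descriptions with no test: the same GV arrays that chose the members enter the change from GV, and a gene chosen for high GV values leans towards a lower value elsewhere.

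For 10 members all 3 MI arrays lay below all 3 GV arrays, where 6.07% of all genes and 14.8% of the bright GV genes did so, and for 0 members they lay above, where 6.44% of all genes and 9.06% of the bright GV genes did. These 10 were Aspscr1, Mtfr1l, Tcn2, Nucb1, Mms19, Map1lc3a, Cope, Usp34, Rufy1 and Dkc1. A fitted change of at least 2-fold downwards was seen for 8 members, against 5.91% of all genes and 7.57% of the bright GV genes, and the other 39 were within 2-fold of their GV level. Of the 8, Aspscr1, Mtfr1l and Vps39 stayed at least 2-fold lower whichever GV or MI array was left out. The other 5 did not: Tcn2 was at -0.75 and Snx17 at -0.87 without GV 1, Nucb1 at -0.97 without MI 2, and Mms19 at -0.98, Snx17 at -0.70 and Pum3 at -0.09 without MI 3. Without MI 3 Mtfr1l was at -1.66 and Vps39 at -1.11. These values are those of the brightest probe set. At other probe sets with a GV mean of 100 or more the change at MI was 0.08 for Vps39, and -0.02 and -2.085 for Mtfr1l. It was 0.28 and -0.14 for Pum3, -0.78 for Mms19, and -1.47, -0.51, -0.78 and -0.74 for Tcn2. Of the 10 genes without overlap, Dkc1 also had such probe sets, with 0.11 and -0.22, as did Map1lc3a with -0.55 and Usp34 with -0.265. Taken as a share of each gene's whole log2 difference from GV to MII, the part already present at MI had a median of 9.69% and ran from -7.92% to 53.5%. It was 50% or more for 2 genes, Aspscr1 and Mtfr1l, 25% or more for 6, and under 10% for 24.

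How much of a difference was present at MI depended on the array. The median change from the GV mean was -0.15 on MI 1, -0.33 on MI 2 and -0.84 on MI 3 for the members, against 0.08, 0.03 and -0.33 for the bright GV genes. MI 3 was the lowest MI array for 31 of the 47 members (66%), as for 66.2% of the bright GV genes and 43.4% of all genes, and for 27 members it lay below the other MI arrays and all GV arrays. It lay at least 2-fold below the mean of MI 1 and MI 2 for 21 members and above that mean for 10. Without MI 3 the members' median change was -0.24, with 0.05 for the bright GV genes. With MI 1 and MI 2 alone 7 members were at least 2-fold lower than at GV, 5 of which were among the 8 found with all arrays (Aspscr1, Mtfr1l, Nucb1, Tcn2 and Vps39), joined by Fxr2 and Uggt1, while Mms19, Pum3 and Snx17 dropped out. The part that follicle cell RNA or the lower 95th percentile of MI 3 plays in its lower values was not tested.

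**Figure D2:**
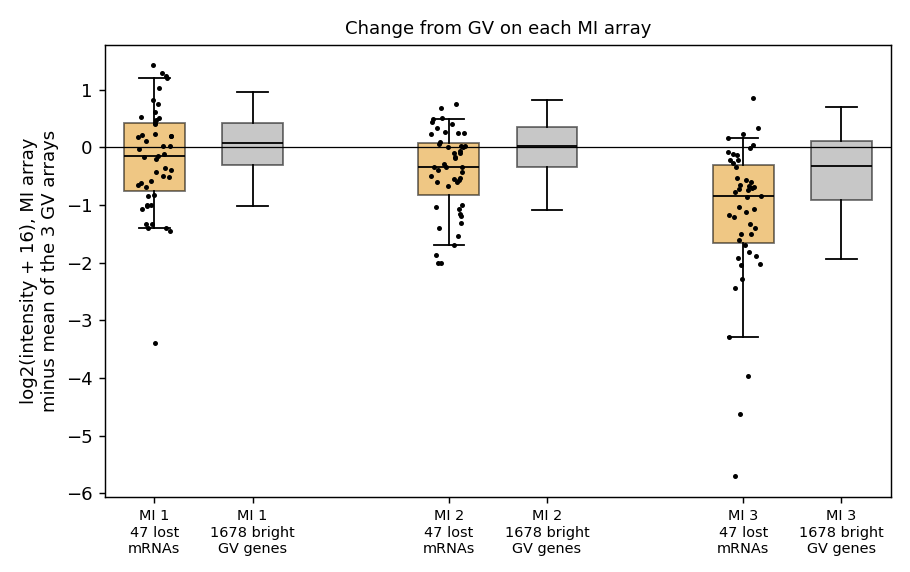
Difference on the log2(intensity + 16) scale between each MI array and the mean of the 3 GV arrays, for the 47 members (left box of each pair, every gene as a point) and for all 1678 genes at 800 or more on the GV arrays (right box); boxes span the quartiles with the median as a line, and whiskers the 5th to 95th percentile. The members' median is -0.15 on MI 1, -0.33 on MI 2 and -0.84 on MI 3.

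MI was also set against a GV array that the rule did not use, and against the same array over genes at 800 or more on the other 2 GV arrays. With GV 1 left out of the rule 60 genes were chosen, and their median change from the unused array to MI was -0.55, against -0.10 for the bright genes and 0.03 for all genes. With GV 2 left out 78 were chosen and the median was -0.10, against -0.02 and 0.05, and with GV 3 left out 67 were chosen and it was -0.36, against 0.00 and 0.06. At least 2-fold lower at MI were 14, 15 and 9 of the chosen genes (23.3%, 19.2% and 13.4%), against 11.1%, 7.96% and 7.81% of the bright genes and 9.98%, 9.26% and 10.3% of all genes. At least 2-fold higher were 0, 4 and 2 of the chosen genes. All MI arrays lay below the unused array for 26, 24 and 26 of the chosen genes (43.3%, 30.8% and 38.8%), against 31.9%, 28.3% and 26.9% of the bright genes and 24.1%, 24.8% and 24.9% of all genes, so the share with GV 2 was near the background. The 47 members are those that also reached 800 on the unused array, and the lowest value among the others was 281 on GV 1, 99.4 on GV 2 and 228 on GV 3. On the MII side 92, 73 and 52 genes were chosen when MII 1, MII 2 or MII 3 was left out of the rule, and the unused array had a median of 145, 79.6 and 40.4 for them. MII 1 thus kept the most genes out, since 45 genes that met the limits on all other arrays were at 150 or more there.

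From MI to MII, 44 of the 47 members passed limma's test as lower, and the MII arrays lay below all MI arrays for all 47. The background is 6.83% of all genes, and 35.6% of the bright GV genes, called lower, with 15.4% and 51% without overlap. Since low MII values chose the members, nothing is read from these counts. The members' log2 change from MI to MII had a median of -4.14 and ran from -5.91 (Tsc22d4) to -2.30 (Mtfr1l). The 3 members that did not pass, Aspscr1, Mtfr1l and Vps39, were the 3 with the lowest MI values relative to GV, and each passed when MI 3 was left out, Vps39 also without GV 1. Of the 44 calls, 37 were kept in each of the 9 fits that left out 1 array, and those of Aldh7a1, Bola2, Cops7a, Pisd, Pum3, Snapc5 and Usp34 were lost in at least 1.

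**Figure D3:**
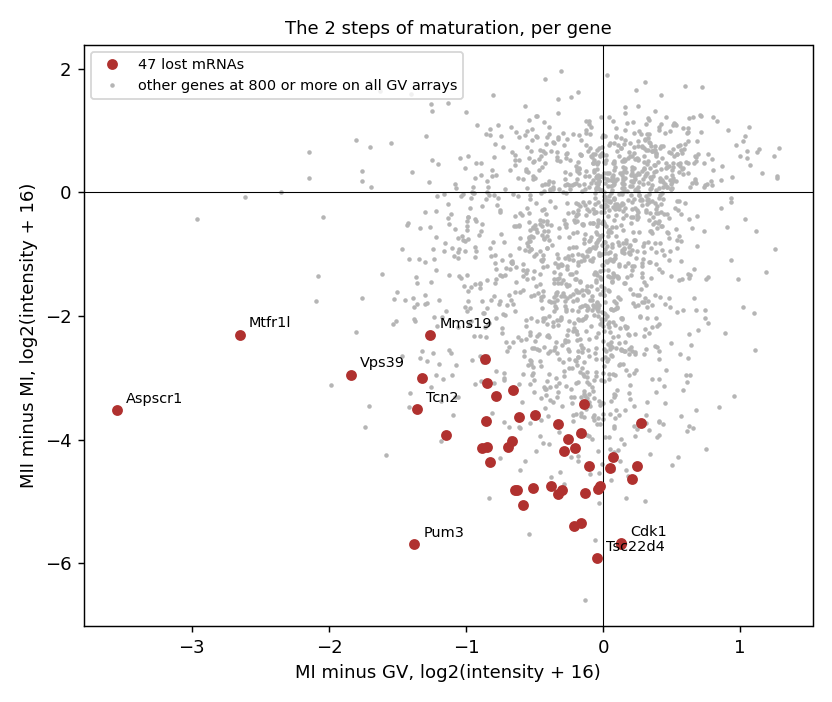
Change from MI to MII (vertical) against change from GV to MI (horizontal), both on the log2(intensity + 16) scale, for the 47 members (large points) and the other genes at 800 or more on all GV arrays (small points). The members lie low by the rule, and most lie within 1 unit of 0 on the horizontal axis, with Aspscr1 and Mtfr1l farthest to the left; both axes share the MI arrays.

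The 4 regulators of the cell cycle and the spindle showed little net change by MI, with a median of 0.02 and a range from -0.49 to 0.25. Cdk1 is the kinase that drives oocytes into M phase, Cdc25b the phosphatase that activates it and is needed in mouse for oocytes to resume meiosis. Cdk1 had intensities of 5606, 2826 and 3687 on the GV arrays, 6534, 5497 and 2136 on the MI arrays and 98.0, 26.0 and 107 on the MII arrays. Cdc25b had 1202, 1865 and 1406 on the GV arrays, 1731, 1764 and 1731 on the MI arrays and 124, 74.0 and 28.0 on the MII arrays. For both genes GV and MI arrays overlapped, and the log2 change from GV to MI was 0.13 (SE 0.56) for Cdk1 and 0.25 (SE 0.40) for Cdc25b, whose MI values lay close together within the GV range. Zw10, a kinetochore protein of the spindle checkpoint, gave 1245, 1558 and 2694 on the GV arrays, 1966, 1807 and 1196 on the MI arrays and 131, 19.6 and 68.0 on the MII arrays. Haus8, a subunit of the augmin complex that seeds new microtubules within the spindle, gave 1043, 842 and 1111 on the GV arrays, 1142, 478 and 624 on the MI arrays and 31.2, 131 and 14.1 on the MII arrays. The changes at MI were -0.10 and -0.49, with overlapping arrays in both cases.

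Of the 74 other measured genes in the list of cell cycle kinases, cyclins and their regulators, 8 fell from MI to MII, 2 rose and 64 did not pass. Ensa, an inhibitor of the phosphatase PP2A when phosphorylated, averaged 8.11 ± 2.68 at MII and 650 ± 112 at MI (SD, n = 3 each; log2 change -4.78, limma adjusted p = 0.000283). Ccnd2, a D-type cyclin, averaged 6.33 ± 3.49 at MII and 764 ± 733 at MI (log2 change -4.74, limma adjusted p = 0.00327). Mastl, the kinase that acts on Ensa, rose by 1.37 on the log2 scale, and Bub1b, a spindle checkpoint kinase, rose by 1.22. Genes of this list thus changed in both directions from MI to MII. Of all genes 6.83% fell and 2.52% rose in this comparison, and of the bright GV genes 35.6% fell. These shares are the background for the counts of each list below.

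Figla is the basic helix-loop-helix factor that directs zona pellucida genes in growing oocytes. It had 1489, 820.4 and 1178 on the GV arrays, 784, 1341 and 1035 on the MI arrays and 15.5, 24.5 and 20.2 on the MII arrays. The 9 values fall into 2 sets, with GV and MI overlapping and the MII arrays far below, and its change at MI was -0.13 (SE 0.30). Cdk1, Cdc25b and Figla stayed near their GV level at MI, as other members did, among them Mcee and Fen1. The sequences before the annotated starts of Cdk1, Cdc25b and Figla are shown as a description, and any link of them to the loss was not tested. They are the 250 bases before the start, 5' to 3' on the gene's strand, from RefSeq (GRCm38.p6), with capitals marking matches on either strand to the CCAAT box, the GC box written GGGCGG, the cell cycle element written TTTGAA, the E-box written CACGTG or the TATA box written TATAAA; these motifs do not overlap one another in the windows shown. The windows are chr10:69352913-69353162 on the minus strand, chr2:131186698-131186947 on the plus strand and chr6:86016941-86017190 on the plus strand.
Cdk1: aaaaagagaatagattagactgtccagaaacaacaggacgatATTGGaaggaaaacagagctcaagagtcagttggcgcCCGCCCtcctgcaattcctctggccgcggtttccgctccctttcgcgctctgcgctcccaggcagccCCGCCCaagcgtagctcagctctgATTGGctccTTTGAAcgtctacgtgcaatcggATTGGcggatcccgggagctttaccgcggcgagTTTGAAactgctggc
Cdc25b: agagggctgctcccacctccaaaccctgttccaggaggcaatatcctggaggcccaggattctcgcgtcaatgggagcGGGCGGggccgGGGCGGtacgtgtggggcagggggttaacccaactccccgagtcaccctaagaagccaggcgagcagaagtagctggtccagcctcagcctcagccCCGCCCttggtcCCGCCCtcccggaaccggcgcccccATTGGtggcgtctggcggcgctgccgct
Figla: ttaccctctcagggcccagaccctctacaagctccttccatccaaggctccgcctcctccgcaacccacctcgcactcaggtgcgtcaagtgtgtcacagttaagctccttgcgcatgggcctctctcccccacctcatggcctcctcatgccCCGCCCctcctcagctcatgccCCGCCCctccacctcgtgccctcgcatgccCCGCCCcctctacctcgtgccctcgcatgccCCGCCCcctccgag
The Cdk1 window held 3 matches to the CCAAT box, 2 to the GC box and 2 to the cell cycle element, the Cdc25b window 1 to the CCAAT box and 4 to the GC box, and the Figla window 4 to the GC box. RefSeq windows were found for 40 of the 47 members, 56 windows in all, since some genes have several starts. The CCAAT box was in 35.7% of them and in 33.8% of all 32851 windows, the GC box in 60.7% and 32.7%, the E-box in 16.1% and 6.02%, the cell cycle element in 10.7% and 16%, and the TATA box in 10.7% and 12.4%. A match is only a run of letters, and the windows of all genes include many that oocytes do not express.

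The transcription machinery was represented by Polr2b and Polr2i, subunits of RNA polymerase II, and by Snapc5, a subunit of the complex that activates small nuclear RNA genes. Polr2b had 2188, 1543 and 1148 on the GV arrays, 1603, 1072 and 615 on the MI arrays and 58.9, 129.7 and 36.5 on the MII arrays. Polr2i had 3051, 851 and 1133 on the GV arrays, 789, 1449 and 430.2 on the MI arrays and 58.2, 31.0 and 13.2 on the MII arrays. In both, MI 3 was the lowest GV or MI array and the other MI values lay within or just below the GV range, with changes at MI of -0.62 and -0.85. Snapc5 spread widely, with 3275, 5519 and 876 at GV, 3877, 3001 and 874 at MI and 49.0, 1.00 and 113 at MII, and its change at MI was -0.21 (SE 0.96). Tox2, an HMG-box factor, had the lowest MII mean of any member, with 859, 811 and 944 at GV, 534, 1472 and 1102 at MI and 1.77, 4.07 and 2.52 at MII. Tsc22d4, a leucine zipper protein, gave 2864, 1130.0 and 1413 at GV, 2201, 1698 and 1116 at MI and 10.7, 20.7 and 4.30 at MII. For Tox2 and Tsc22d4 the MI arrays lay on both sides of the GV median, and the change at MI was 0.13 and -0.04. Of the 118 other measured genes of RNA polymerases and general transcription, 19 fell from MI to MII, 3 rose and 96 did not pass. Polr2e, another subunit of RNA polymerase II, averaged 38.6 ± 19.4 at MII and 923 ± 615 at MI (log2 change -3.97, limma adjusted p = 0.00677), Polr3k of RNA polymerase III fell by 3.39 on the log2 scale, and Med15, a Mediator subunit, rose by 2.63, as did Taf15 by 1.85.

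Of the nucleolar members, Pum3, a Puf-family protein of ribosome assembly, showed how far a single MI array could carry a mean. It had 7488, 5811 and 9246 on the GV arrays, 7473, 6462 and 459 on the MI arrays and 72.5, 59.0 and 9.04 on the MII arrays. MI 1 and MI 2 lay within the GV range, and MI 3 was more than 10 times lower than either, so that the change at MI was -1.38 over 3 arrays and -0.09 over MI 1 and MI 2. Dkc1, the pseudouridine synthase of small nucleolar RNPs and telomerase, had 2126, 2389 and 2931 on the GV arrays, 1213, 1689.6 and 2119 on the MI arrays and 52.0, 15.2 and 42.2 on the MII arrays. Here MI 3 was the highest MI array, all MI arrays lay below all GV arrays, and the change was -0.59. The loss of Pum3 and Dkc1 by MII was seen at the brightest probe set only. The other probe sets of Dkc1 had MII means of 853 and 904, against 1091 and 952 at GV. Those of Pum3 had 722 and 345 at MII, against 820 and 497 at GV. Gnl3, the nucleolar GTPase nucleostemin, had 1455, 1971 and 906 at GV, 2427, 414 and 589.6 at MI and 38.4, 11.9 and 64.5 at MII, with overlapping arrays. Of the 104 other measured genes of ribosome biogenesis and the nucleolus 23 fell from MI to MII, 5 rose and 76 did not pass. Pop7, a subunit of RNase P and RNase MRP, averaged 24.2 ± 6.15 at MII and 632 ± 265 at MI (log2 change -3.95, limma adjusted p = 0.0189), and Nop56, a core protein of box C/D RNPs, fell by 3.93 on the log2 scale. The risers with the largest change were Nip7, a factor of 60S subunit assembly (3.16), and Ddx6, a helicase of translational repression that the list held by its symbol only (2.96).

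Genes of endosomes, the Golgi and vesicle traffic formed the most numerous set, 9 members with a median change at MI of -0.86, and held 3 of the 8 genes that were at least 2-fold lower at MI. Aspscr1, a tether of glucose transporter vesicles, had 3016, 4000.1 and 3967 on the GV arrays, 332, 1239.6 and 54.1 on the MI arrays and 5.95, 3.65 and 30.6 on the MII arrays. Its MI arrays differed widely among themselves but all lay below the lowest GV array, and its change at MI was -3.54 (SE 0.91, limma adjusted p = 0.439), or -2.46 over MI 1 and MI 2. Vps39, a subunit of the HOPS complex that joins late endosomes to lysosomes, had 871, 4367 and 3519.7 on the GV arrays, 1122, 1058 and 228 on the MI arrays and 42.8, 58.9 and 132 on the MII arrays. GV 1 lay below 2 of its MI arrays, so GV and MI overlapped despite a change of -1.84. Snx17, a sorting nexin that returns receptors from endosomes to the surface, had 3103, 1952 and 1571 at GV, 1054, 1605 and 506 at MI and 22.0, 46.0 and 93.9 at MII. Commd9 belongs to the Commander complex, which works with Snx17, and had 2139, 1191 and 1499 at GV, 1447, 1464 and 1292 at MI and 57.4, 5.51 and 10.4 at MII. The pair differed at MI: the change was -1.14 for Snx17, with MI 1 and MI 3 below all GV arrays, and -0.16 for Commd9, with all MI arrays within the GV range. Of the 104 other genes of endosomal sorting 19 fell from MI to MII, 3 rose and 82 did not pass, with Bloc1s5, a subunit of a complex for lysosome-related organelles, at 3.60 ± 0.46 at MII and 448 ± 281 at MI (log2 change -4.29, limma adjusted p = 0.00656). Vps45, which acts in endosomal fusion, fell by 3.13 on the log2 scale, while Snx7 (3.06) and Chmp1b of the ESCRT-III family (2.60) rose.

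Among the other members of this set, Map1lc3a, an LC3 protein of autophagosomes, had 2467, 1980.1 and 2153 at GV, 1631, 1729 and 579.6 at MI and 69.3, 68.4 and 28.4 at MII. Cope, the epsilon subunit of the COPI coat, had 2219.8, 1075 and 1439 at GV, 1063, 747 and 712 at MI and 37.2, 98.3 and 29.2 at MII. Rufy1, an effector of endosomal Rab proteins, had 1085, 1263 and 1462 at GV, 812, 824 and 733 at MI and 96.0, 26.7 and 9.90 at MII. In these 3 genes every MI array lay below every GV array, with changes of -0.88, -0.85 and -0.67. Trappc2l, of the TRAPP tethering complexes, had 1565, 1244 and 1552 at GV, 1563, 1915 and 537 at MI and 23.2, 30.9 and 25.9 at MII. Yipf1, a Golgi membrane protein, had 1475, 1814 and 1942 at GV, 1323, 1549 and 1493 at MI and 75.4, 125 and 45.3 at MII. For both the arrays overlapped, and the changes were -0.30 and -0.25. Of the 210 other genes of the secretory pathway and vesicle traffic 29 fell from MI to MII, 5 rose and 176 did not pass, with Rab1b, a Rab of transport from the endoplasmic reticulum to the Golgi, at 36.6 ± 22.8 at MII and 834 ± 268 at MI (log2 change -4.07, limma adjusted p = 0.00241). The syntaxin Stx18 fell by 3.81 on the log2 scale, and Arl14ep (2.46) and the COPII subunit Sec24d (1.99) rose.

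Proteins of the endoplasmic reticulum and secreted proteins, 6 members, had a median change at MI of -0.80. Nucb1, a calcium-binding protein of the Golgi and secretory route, had 1239.8, 847 and 1511 on the GV arrays, 454, 278 and 759.5 on the MI arrays and 45.3, 30.8 and 56.4 on the MII arrays. It was the only member below 800 on every MI array, MI 3 was its highest MI value, and its change was -1.32 (SE 0.39, limma adjusted p = 0.517). Tcn2, the secreted carrier of vitamin B12, had 5535, 1482 and 1598 on the GV arrays, 883, 1113 and 764 on the MI arrays and 90.3, 46.5 and 66.5 on the MII arrays. Its GV 1 value was more than 3 times those of GV 2 and GV 3, the MI arrays lay close together below all of them, and the change was -1.36, or -0.75 without GV 1. Cst3, the secreted protease inhibitor cystatin C, had 3019.8, 903 and 1583 at GV, 803, 1152 and 903 at MI and 88.9, 97.3 and 63.4 at MII. Uggt1, the sensor of misfolded glycoproteins, had 882, 1593 and 837 at GV, 824, 251 and 974 at MI and 25.5, 9.01 and 8.97 at MII. In both, the GV and MI arrays overlapped, and for Uggt1 MI 2 was far the lowest. Reep5, which shapes the tubules of the endoplasmic reticulum, had 3669, 2624 and 3056 at GV, 4300.4, 2448 and 1411 at MI and 142, 116 and 12.4 at MII. Derl3, of the pathway that removes misfolded proteins, had 1781, 871 and 1214 at GV, 2530.3, 977 and 536 at MI and 61.8, 60.3 and 56.4 at MII. Their changes at MI, -0.33 and -0.16, rested on MI 3, and over MI 1 and MI 2 they were 0.07 and 0.34. At the other probe sets of Reep5 the change at MI was -0.94 and -0.57.

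Mitochondrial and metabolic members ranged from one of the 2 lowest at MI to genes with no net change. Mtfr1l, a mitochondrial protein related to fission regulators, had 1456, 4757 and 1731 on the GV arrays, 826, 613 and 78.1 on the MI arrays and 73.6, 69.3 and 38.5 on the MII arrays. Its MI 3 value lay next to the MII values, all MI arrays lay below all GV arrays, and the change was -2.65 (SE 0.83, limma adjusted p = 0.548). Pisd, the mitochondrial enzyme that makes phosphatidylethanolamine, had 6653, 1142 and 2264 at GV, 2304, 4137 and 463 at MI and 34.7, 11.5 and 132 at MII. Aldh7a1, an aldehyde dehydrogenase of lysine breakdown, had 823, 1079 and 4458 at GV, 999, 683 and 944 at MI and 123.3, 96.6 and 145 at MII. Both had 1 GV array far above the other 2, and in both GV and MI overlapped. Mcee, the methylmalonyl-CoA epimerase, whose pathway ends in a vitamin B12-dependent step, had 1496, 1278 and 1831 at GV, 1485, 1448 and 1553 at MI and 113, 10.3 and 36.3 at MII. Atox1, the copper chaperone of the secretory route, had 1534, 1427 and 992 at GV, 2999.6, 1059.6 and 792 at MI and 80.0, 56.5 and 35.2 at MII. The MI values of Mcee lay within the GV range and its change was -0.02, while Atox1 (0.07) had MI values on both sides of the GV range. Of the 122 other genes in the list of central carbon, nucleotide and lipid metabolism, whose only member was Bola2, 20 fell from MI to MII, 3 rose and 99 did not pass. Cyb5r3, cytochrome b5 reductase, averaged 154 ± 180 at MII and 4006 ± 1837 at MI (log2 change -4.99, limma adjusted p = 0.00611), the cytosolic aconitase Aco1 fell by 4.02 on the log2 scale, and Idh1 (3.32) and Idi1 (1.48) rose.

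Fen1, the flap endonuclease of DNA replication and repair, had 3909, 1520.2 and 1162 at GV, 2711, 2412 and 1181 at MI and 105, 73.1 and 53.4 at MII. Mms19, which delivers iron-sulphur clusters to DNA polymerases and helicases, had 944, 1389 and 1808 on the GV arrays, 497, 892 and 367 on the MI arrays and 104, 79.6 and 110.2 on the MII arrays. Bola2, a partner of glutaredoxin in handling iron-sulphur clusters, had 1834, 880.1 and 1245 at GV, 3127, 1272 and 246 at MI and 107, 70.6 and 24.98 at MII. These 3 genes differed at MI: all MI arrays of Mms19 lay below its GV arrays (change -1.26, SE 0.37, limma adjusted p = 0.505), Fen1 overlapped with a change of 0.05, and Bola2 ranged at MI from below to above the whole GV range. Of the 119 other genes of DNA replication and repair 21 fell from MI to MII, 5 rose and 93 did not pass. The primase subunit Prim1 averaged 16.6 ± 12 at MII and 600 ± 148 at MI (log2 change -4.27, limma adjusted p = 0.00237) and the single-strand binding protein Rpa2 fell by 4.23 on the log2 scale, while the helicase partner Cdc45 (2.67) and the origin protein Orc6 (2.24) rose.

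In the ubiquitin system, Fbxw13, an F-box and WD-repeat protein, was after Pum3 the member with the highest mean at GV, with 3617, 4893 and 6848 on the GV arrays, 2771, 5013 and 2991 on the MI arrays and 122, 89.5 and 125 on the MII arrays. Its arrays overlapped at GV and MI, and the change was -0.51. Cops7a, a subunit of the COP9 signalosome, had 952, 851 and 1076 at GV, 2591, 1355 and 223 at MI and 74.4, 2.03 and 8.72 at MII. Usp34, a deubiquitinase, had 1003, 1162 and 925 at GV, 889, 762 and 259.6 at MI and 133, 10.6 and 63.6 at MII. In both genes MI 3 was far the lowest MI array: the change was -0.03 for Cops7a and 0.96 over MI 1 and MI 2, and -0.85 for Usp34 and -0.31 over MI 1 and MI 2. At another probe set of Cops7a, with a GV mean of 953, the change at MI was -1.53. Fbxw13 belongs to a family of near-identical mouse genes, so its signal may include relatives. Of the 171 other genes of ubiquitin and its relatives 20 fell from MI to MII, 8 rose and 143 did not pass. Nedd8, the ubiquitin-like modifier that the COP9 signalosome removes from cullins, averaged 280 ± 16.6 at MII and 2828 ± 296 at MI (log2 change -3.26, limma adjusted p = 0.00128), and Sumo3 fell by 3.33 on the log2 scale. The F-box protein Fbxo15 (3.64) and the deubiquitinase Usp28 (2.27) rose.

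Of the remaining members, Fxr2, an RNA-binding relative of the fragile X protein, had 996, 2243 and 1126 at GV, 533, 504 and 2469.9 at MI and 11.6, 16.7 and 19.3 at MII. MI 1 and MI 2 lay below all its GV arrays and MI 3 above them. Elp5, a subunit of Elongator, which modifies transfer RNAs, had 2499, 1552 and 1939 at GV, 2832, 1824 and 949.5 at MI and 148, 26.0 and 117 at MII. Strn4, a striatin that directs the phosphatase PP2A, had 1173, 1506 and 1136 at GV, 839, 498 and 1191 at MI and 78.6, 48.6 and 95.2 at MII. Elp5 and Strn4 overlapped between the stages, with changes at MI of -0.20 and -0.66. Phpt1, a phosphohistidine phosphatase, had 1731, 1111 and 949 at GV, 1414, 1671 and 422 at MI and 31.0, 70.7 and 26.9 at MII. Ctnna3, an alpha-catenin of cell junctions, had 1593, 829 and 2498 at GV, 1705, 932 and 934 at MI and 38.7, 23.2 and 21.3 at MII. Both overlapped, and for Phpt1 MI 3 alone lay below the GV range. Ceacam10, a member of the carcinoembryonic antigen family, had 899, 1166 and 855 at GV, 865, 1024 and 753 at MI and 91.3, 84.3 and 36.5 at MII. Znrd2, a zinc ribbon protein, had 1192, 1097 and 1913 at GV, 3225, 889 and 1347 at MI and 51.4, 55.7 and 37.2 at MII. BC055324, known only by a sequence symbol and named after its values were seen, had 995, 1199 and 1458 at GV, 1621, 1419 and 1345 at MI and 123.1, 115 and 58.5 at MII, and its change at MI, 0.27, was the highest of the members.

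Of the 18 gene lists, 10 held a member and 8 held none. Those without one were mitochondrial import and inner-membrane proteins, the spliceosome, the translocon of the endoplasmic reticulum, the anaphase-promoting complex with kinetochore and cohesin, chaperones, redox enzymes, the vacuolar ATPase with lysosomal enzymes, and chromatin. The lists were drawn up by symbol and are not complete. In no list were 26 members, among them the kinetochore protein Zw10. The share of non-members that fell from MI to MII ran from 5.23% in the chromatin list (8 of 153) to 30.6% in the list of oocyte genes (22 of 72, with 12 that rose), beside 6.83% of all genes and 35.6% of the bright GV genes. The lists differed in brightness: 54 of the 74 measured oocyte genes were at 800 or more on all GV arrays, and 34 of the 153 chromatin genes. The oocyte share also covers dimmer genes and leaves out the members, while that of bright GV genes includes them. These shares thus cannot be ranked against each other. In the oocyte list Khdc3, of the subcortical maternal complex, averaged 159 ± 85.6 at MII and 3102 ± 1575 at MI (log2 change -4.14, limma adjusted p = 0.00207), and Cd9, needed on the egg for sperm fusion, fell by 3.51 on the log2 scale, while Omt2a (1.89) and Sohlh2 (2.67) rose. In the cytoskeleton list, which holds Map1lc3a, 21 of the 135 other genes fell, 1 rose and 113 did not pass. Its falls were led by the profilin Pfn2 (-5.03) and the dynactin subunit Dctn1 (-3.51), and the gene that rose was the kinesin Kif18a (2.33). No non-member of these 18 lists passed between MI and GV.

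The limits of the rule lay within a continuous range. Just inside the GV limit lay Tox2, with a lowest GV value of 811, and Figla, with 820.4, and just outside it Aco1, with 799.6, and Nipsnap1, with 789.7. Just inside the MII limit lay Elp5, with a highest MII value of 148.5, and Aldh7a1, with 145.1, and just outside it Smdt1, with 150.3, and Atp6v1d, with 154.6. The choice of probe set mattered as well. Taking for each gene the probe set with the highest mean log2 value, in place of the highest mean intensity, left 42 genes and dropped Atox1, Cops7a, Dkc1, Mtfr1l and Tcn2, an alternative added after seeing the data. With the probe set brightest on the GV arrays alone 48 genes were chosen, and their median change at MI was -0.44.

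Other probe sets of the same genes gave a mixed account of the loss. Of the 47 members 25 had another probe set with their symbol alone, and 17 had 1 with a mean of 100 or more at GV, 27 such probe sets in all. Between GV and MII 19 of these 27 were at least 2-fold lower at MII and 17 at least 4-fold, with a median log2 difference of -2.63, and for 18 all MII arrays lay below all GV arrays. For 11 of the 17 genes every such probe set was at least 2-fold lower, among them Bola2, Commd9, Fen1, Map1lc3a, Tcn2 and Znrd2. For the other 6 at least 1 was not: Pum3, Dkc1, Vps39, Usp34, Reep5 and Mms19. The other probe sets of Dkc1 averaged 853 ± 275 and 904 ± 93.5 at MII, against 1091 ± 178 and 952 ± 217 at GV (SD, n = 3 each). Those of Pum3 averaged 722 ± 245 and 345 ± 262 at MII, against 820 ± 1155 and 497 ± 92.2 at GV. On the log2 scale the first of Pum3 was 0.87 higher at MII, since 1 GV array held most of its GV mean. The only other probe set of Vps39 was lower by 0.33 at MII on the log2 scale, that of Usp34 by 0.73 and that of Mms19 by 0.97. For these 5 genes a 2-fold difference was thus seen at the brightest probe set and at no other bright one, while 1 of the 2 others of Reep5 differed by -3.87. For Mtfr1l the 2 other probe sets differed on MI: 1 averaged 988 ± 104 at MI and 998 ± 69.5 at GV, and the other 177 ± 129 at MI and 720 ± 511 at GV. The other probe set of Cops7a averaged 953 ± 607 at GV, 292 ± 102 at MI and 264 ± 113 at MII. That of Vps39 averaged 171 ± 51.1 at MI and 181 ± 114 at GV. These probe sets share the arrays that chose the members, so they are given with no test. Of the probe sets used, 6 end in x_at (12.8%, against 10.9% of bright GV genes and 4.1% of all genes) and 5 in s_at, suffixes by which the array's maker marks possible matches to other transcripts; what such matches contribute was not tested.

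**Figure D4:**
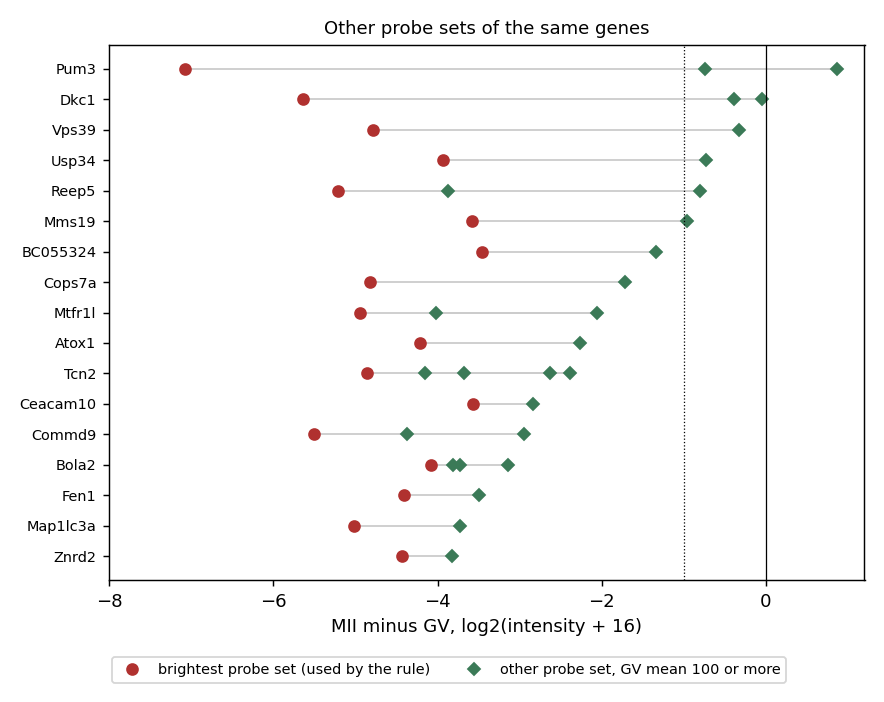
Difference between MII and GV on the log2(intensity + 16) scale at the brightest probe set (circles) and at other probe sets with a GV mean of 100 or more (diamonds), for the 17 members that have one; the dotted line marks a 2-fold fall. All circles lie left by the rule, and diamonds of Pum3, Dkc1, Vps39, Usp34, Reep5 and Mms19 lie right of the dotted line.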

How the data were processed

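Polysome-bound mRNA of GV, MI and MII oocytes was measured on 9 Affymetrix mouse arrays, 3 per stage, from linearly amplified, biotin-labelled cDNA, per the labels' protocols. The authors deposited 1 table of probe-set intensity on a linear scale; for background correction, probe summarisation and scaling no method is given in the sources used here, and array medians lay between 12.39 and 13.22. Of 45101 probe sets, 64 were controls and stayed out. GEO's annotation of the platform gave 34945 probe sets 1 symbol, 932 several and 9160 none. The one-symbol probe set with the highest mean intensity over the 9 arrays stood for each of 18193 genes, of which a RefSeq table (GRCm38.p6) held 18032, with 0 changed symbols.

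Intensities were transformed to log2(intensity + 16), which understates changes of dim genes, and 1 linear model with 3 stage means was fitted over all arrays and genes with limma 3.58.1 in R 4.3.3 (lmFit, eBayes; two-sided, Benjamini-Hochberg over all genes, threshold 0.05), and tested on simulated data. The number of arrays limits the precision. Every member may be named. In full are given the members with the 10 lowest and 10 highest changes at MI, the 6 brightest at GV and up to 3 per gene list; in lists that hold a member, up to 2 non-members per direction with the largest change from MI to MII are named. The members, gene lists and named genes were chosen with earlier results of these data known. Alternatives changed the rule's limits and arrays, the probe set, scaling, pseudocount, filter, block and arrays fitted.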

Additional observations from a re-analysis of the deposited data

How the results depend on the processing

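Of 145 recomputed summary values 125 stayed within 1.5 times the value reported (for the median, within the SD over MI arrays of 0.356). Some of these could not move, such as the change from GV to MI when an MII array was left out of the fit. The members' calls from MI to MII lean on the rule that chose them. Nothing is read from the count of 125. With limits of 1000 and 100 the members numbered 14. Of these 5 were at least 2-fold lower at MI, 7 had MI arrays all below GV arrays, and the median change at MI was -0.76. With limits of 600 and 200 they numbered 146, with 36, 39 and -0.53. The 47 members had 8, 10 and -0.49, so the tighter limits gave larger shares and a lower median. With 1 GV array left out of the rule and MI set against it, the members numbered 60 to 78, the genes with all MI arrays below that array 24 to 26, those at least 2-fold lower 9 to 15 and the median change ran from -0.55 to -0.10. With 1 MII array left out of the rule the members numbered 52 to 92 (73 without MII 2). These counts are set against 1 GV array, which is easier to meet than 3: 24.1% to 24.9% of all genes had all MI arrays below it.

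With the members kept, leaving out each array in turn gave 7 to 14 members at least 2-fold lower at MI (13 without GV 2, 14 without MI 1), 10 to 14 with MI arrays all below GV arrays, and a median of -0.69 (without MI 1) to -0.24 (without MI 3). The members called lower from MI to MII numbered 37 to 46. All genes called between MI and GV numbered 0 to 1, and between MII and MI 843 (without MI 2) to 1564, being 1002 without MI 1 and 932 without MII 3, against 1702 with all arrays, where fewer arrays were fitted. Samples with the same replicate number were not taken as pairs. The correlations of their deviations from the stage means were all above 0, from 0.00072 to 0.223, against -0.246 to 0.111 for different numbers. GV 1 correlated best with MI 1 (0.196) and MI 3 with GV 3 (0.223), while MI 2 correlated best with GV 1 (0.111). What samples of the same number share was not tested. With the replicate number as a block the members' median was -0.49 and 44 were called from MI to MII, as without it, with 1684 of all genes called. Scaling (quantile, median or 95th percentile), pseudocounts of 1 and 64, the filter, the mean of all probe sets and fits of 2 stages kept 0 members called between MI and GV and 40 to 46 between MII and MI. Of 990 single-gene values over 18 alternatives 949 kept their side of the threshold, 33 lost a call, 8 gained one and 0 changed sign. Most of these values are changes from MI to MII of the members, whose low MII values chose them. The rest are changes from GV to MI of the 8 members at least 2-fold lower at MI, where 0 were called. Nothing is read from this tally.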
